A study of Mus musculus with 20 samples.

Results

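The respiratory chain genes described here are the subunits of the 5 oxidative phosphorylation complexes, taken by gene symbol: the protein-coding genes of the mitochondrial genome, the Nduf, Sdh, Uqcr and Cox4 to Cox8 subunit genes, and the Atp5 genes, each with a mean of at least 1 TPM (transcripts per 1000000, the total of each library) in the table it was read from. Of the 21509 genes in each table, 101 matched by symbol. The flow table held 91 of them above the minimum, 13 mitochondrially encoded and 78 nuclear encoded, and the siRNA table held 92, with the same 13 and 79 nuclear encoded. In total 92 genes qualified in at least 1 table, 91 of them in both. RNA-seq was done on DC2 cells, an immortalized line of principal cells from the distal caput of the mouse epididymis, grown in microfluidic channels. In the first experiment 6 flow libraries came from cells perfused for 3 h at a shear stress of 1 dyn/cm2 and 6 static libraries from cells without flow. In the second, 4 libraries came from cells given siRNA against Ift88, an intraflagellar transport gene needed to build primary cilia, and 4 from cells given a control siRNA. According to the study's methods both siRNA groups were exposed to flow, which the labels do not state, so neither was a static control. All groups were of the same cell line, and the labels do not say whether replicates were separate cultures, so that the p-values below measure the spread between these libraries, which may be technical.

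The principal cell markers Aqp9, Rnase10, Cst8, Cd52, Lcn5, Lcn8 and Cst11 averaged under 1 TPM in both tables. The epithelial keratins Krt18 and Krt19 reached it, and Epcam and Krt8 did not. The labels of flow replicate 6 conflict, its title naming flow and its treatment entry naming static conditions, and it was counted as flow. TPM values carry no read totals. The relative depth read from the lowest values, as a ratio to the median library of each table, was 0.892 to 1.23 for the flow and static libraries and 0.925 to 1.32 for the siRNA libraries.

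Oxidative phosphorylation couples the oxidation of NADH and succinate to the synthesis of ATP across the inner mitochondrial membrane. Complex I (NADH dehydrogenase) and complex II (succinate dehydrogenase) pass electrons to ubiquinone, complex III passes them to cytochrome c, complex IV (cytochrome c oxidase) hands them to oxygen, and complex V (ATP synthase) uses the resulting proton gradient. Subunits of complexes I, III, IV and V come from both genomes, and complex II is wholly nuclear encoded. The mitochondrial genome is transcribed from both strands as long precursors that are cut at the tRNAs, whereas the nuclear genes have their own promoters. In the epididymis, principal cells line the duct and maintain the luminal fluid in which sperm mature.

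The mitochondrial genes lie close together without introns, and 4 neighbouring pairs share bases, which bears on how reads were divided between them. The 3 largest overlaps are printed below from the mitochondrial genome (build GRCm38, plus strand, gene bounds from GENCODE M21), each with 30 bases on either side and the shared bases in capitals. The first is chrM:7897-7999, the second chrM:10137-10203 and the third chrM:13522-13595.
mt-Atp8/mt-Atp6: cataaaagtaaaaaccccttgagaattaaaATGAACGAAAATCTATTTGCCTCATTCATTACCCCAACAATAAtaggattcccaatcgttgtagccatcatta
mt-Nd4l/mt-Nd4: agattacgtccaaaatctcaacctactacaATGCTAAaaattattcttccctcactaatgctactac
mt-Nd5/mt-Nd6: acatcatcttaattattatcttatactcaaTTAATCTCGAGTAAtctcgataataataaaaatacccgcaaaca
The 43 bases that mt-Atp8 and mt-Atp6 share belong to a gene of 204 bases and a gene of 681 bases on the same strand, and mt-Nd4l and mt-Nd4 share 7 bases in the same way. mt-Nd5 and mt-Nd6 overlap by 14 bases on opposite strands, and mt-Atp6 and mt-Co3 by 1 base. Whether strand was used in the quantification is not given in the sources used here, so reads of mt-Nd5 and mt-Nd6 may not be told apart where they overlap, and the split of signal between mt-Atp8 and mt-Atp6 is uncertain. The ratio of mt-Atp8 to mt-Atp6 TPM lay between 0.689 to 0.916 with flow and 0.7 to 0.892 without. In the siRNA experiment it lay above 1, at 1.32 to 1.37 with Ift88 siRNA and 1.27 to 1.36 with control siRNA.

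Among the mitochondrial genes, the ATP synthase subunits mt-Atp6 and mt-Atp8 had the highest levels of the flow experiment, with means over its 12 libraries of 12053 and 9779 TPM. The cytochrome c oxidase subunits mt-Co2, mt-Co3 and mt-Co1 followed at 8767, 8699 and 6928 TPM. mt-Cytb, the cytochrome b of complex III, stood at 2762 TPM. The 7 complex I subunits ran from mt-Nd1 at 4586 TPM and mt-Nd3 at 3368 TPM down to mt-Nd5 at 1119.7 TPM, the lowest of the 13. In this order mt-Co2 and mt-Co3 did not differ beyond their spread over libraries, which ran from 5278 to 13343 TPM and from 6183 to 12184 TPM. mt-Nd6, the gene encoded on the other strand and known for an mRNA without a poly(A) tail, was read at 1609 TPM. It exceeded mt-Nd5 in each library, by a ratio of 1.43 to 1.55 with flow and 1.30 to 1.53 without.

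In the siRNA experiment the order was different. mt-Atp8 led at 8379 TPM, followed by mt-Atp6 at 6318 TPM and mt-Cytb at 5228 TPM. mt-Nd3 came last at 98.7 TPM with a range over 8 libraries of 78.3 to 134 TPM, against 2503 to 4651 TPM in the flow experiment. Both tables were normalised separately and no test was run between them. Of the 13 genes, 12 had higher means in the flow experiment and 1, mt-Cytb, a lower one, and for 11 the libraries of both experiments did not overlap. The ratio of the means, flow experiment over siRNA experiment, had a median of 3.06 and ran from 0.528 for mt-Cytb to 34.1 for mt-Nd3. For the 78 nuclear encoded genes in both tables the median ratio was 0.919, from 0.262 for Uqcrc1 to 3.72 for Cox7a1. Transfection and the experiment itself cannot be told apart in these ratios. The mitochondrially encoded genes were not the only abundant class to differ between the experiments. Summed cytosolic ribosomal protein genes (78 tested in the flow table, 79 in the siRNA table) also had higher group means in the flow experiment. These means were 182225 (flow) and 185889 (static), against 56576 (Ift88 siRNA) and 58507 (control siRNA), all in TPM. The cause of these differences was not tested.

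**Figure D1:**
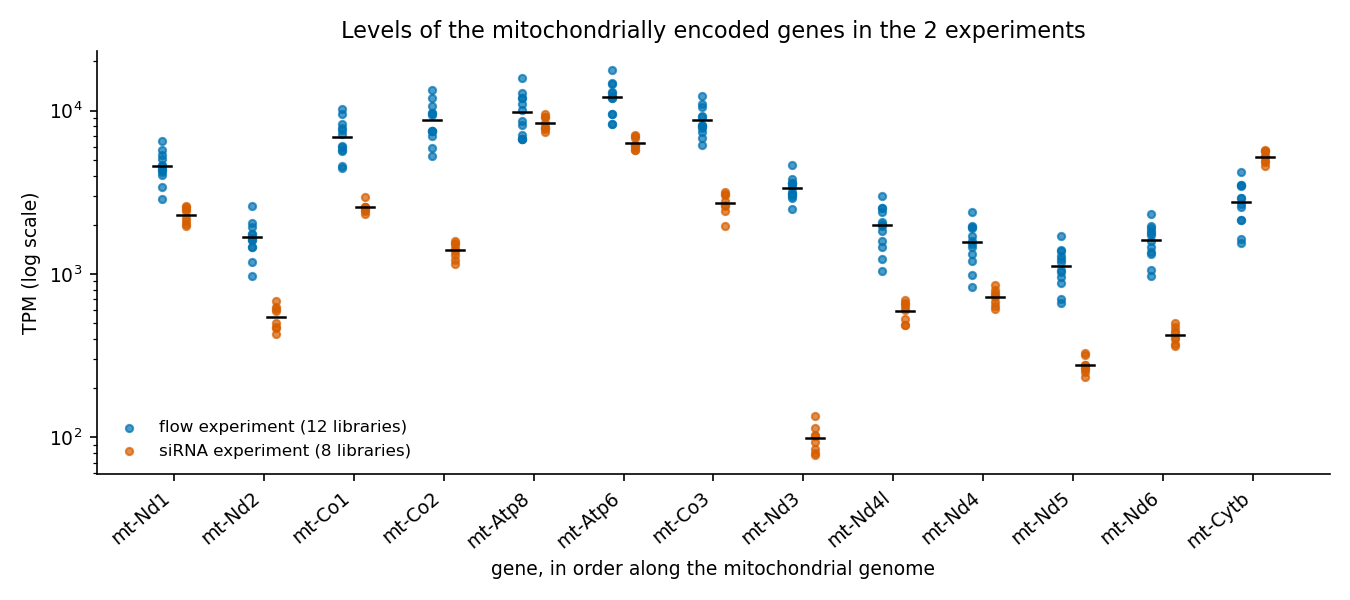
TPM of the 13 mitochondrially encoded genes on a log axis, in their order along the mitochondrial genome, with 1 point per library and the mean of each experiment as a black line. mt-Cytb alone lies higher in the siRNA experiment, at 5228 against 2762 TPM, and mt-Nd3 differs most, at 98.7 against 3368 TPM.

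The nuclear encoded subunits covered a lower band of levels. In complex I, Ndufb9 was highest in the flow experiment at 589 TPM and Ndufs4, an accessory subunit, lowest at 66.3 TPM. Ndufs1, an iron-sulfur subunit through which electrons pass, had 82.6 TPM, and Ndufv1, which binds NADH, had 274 TPM. The accessory subunit Ndufb8 stood at 533 TPM there and at 1675 TPM in the siRNA experiment, where it was the highest of complex I. The complex II subunits were close to each other, from 101 TPM for the flavoprotein Sdha to 171 TPM for the membrane anchor Sdhd, and in the siRNA experiment the iron-sulfur subunit Sdhb led with 485 TPM. In complex III the small subunit Uqcr11 was highest at 844 TPM and the core protein Uqcrc2 lowest at 99.8 TPM, while the Rieske iron-sulfur protein Uqcrfs1 had 127 TPM.

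In complex V the catalytic beta subunit Atp5b led at 2019.7 TPM, the highest mean of any nuclear encoded member in the flow experiment. The proteolipid subunit c is made from 3 genes, whose means were 317 TPM for Atp5g1, 924 TPM for Atp5g2 and 897 TPM for Atp5g3. In the siRNA experiment they stood at 546, 308 and 512 TPM, so that Atp5g1 was the lowest of the 3 in one experiment and the highest in the other. Atp5g1 and Atp5g3 overlapped in the siRNA experiment, with libraries from 489 to 605 TPM and from 447 to 539 TPM.

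Complex IV has subunits with tissue isoforms, and the widespread forms dominated. Cox4i1, Cox6a1, Cox6b1, Cox7b and Cox8a had flow experiment means of 1318, 1136, 449.8, 166 and 1168 TPM, whereas Cox4i2, Cox6b2, Cox7b2, Cox8b and Cox8c stayed below the minimum of 1 TPM in both tables. Cox4i2, known from lung, averaged 0.105 TPM in the flow experiment, and Cox8c was listed at 0 in all 20 libraries. The heart and skeletal muscle form Cox6a2 averaged 0.859 TPM in the flow table and passed the minimum only in the siRNA table, at 1.62 TPM. Cox7a1, the other heart and muscle form, was the lowest nuclear encoded member of the flow table at 36.6 TPM, below Cox7a2 at 444 TPM and the supercomplex factor Cox7a2l at 351 TPM. In the siRNA experiment Cox7a1 averaged 9.84 TPM. Ndufa4, now placed in complex IV, had 746 TPM, and its paralog Ndufa4l2 averaged 0.407 TPM. The remaining genes below the minimum in both tables were Ndufb11b, Cox5b-ps and a further Atp5o entry, by name copies of listed members, with which the quantification could split reads. These 9 genes were left out of the main fit of each comparison, whereas an alternative without a filter on low values could include such genes.

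The libraries of the flow experiment differed more in mitochondrially encoded RNA than in nuclear encoded subunits. On the log2(TPM + 1) scale the median SD within groups was 0.40 over the 13 mitochondrial genes, 0.10 over the 78 nuclear encoded members and 0.20 over all 11388 genes tested. The most even member was Atp5pb, a stalk subunit of ATP synthase, at 0.05, and the least even was Cox7a1 at 0.69. In the siRNA experiment the medians were 0.12 for both classes and 0.14 over all 11209 genes tested. Ndufv1 had the smallest SD of all those genes, at 0.02, its TPM lying at 302, 300.5, 300.4 and 307 with Ift88 siRNA and at 286, 293, 292 and 287 with control siRNA. In the flow experiment the mitochondrial genes deviated together. All 13 lay above their mean in static replicates 1 and 2, and all 13 below it in static replicates 4 and 6 and in flow replicates 4 and 6. In bulk samples fewer cells with a transcript and less RNA per cell cannot be told apart.

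The first comparison asks whether shear stress alters gene expression in these cells. Flow did not separate from static conditions in the summed mitochondrially encoded TPM. The sums in static replicates 1 to 6 were 96047, 77918, 60608, 52272, 73601 and 44283 TPM. In flow replicates 1 to 6 they were 72812, 74359, 64231, 43976, 65479 and 53096 TPM. All flow libraries lay within the static range except replicate 4, just below it. Means were 62326 ± 11749 TPM with flow and 67455 ± 18863 TPM without (SD, n = 6 each), which is 6.23% and 6.75% of all TPM. The sum was lower with flow in 4 of 6 same-numbered pairs, and the mean pair difference was -5129.5 ± 11138 TPM (SD, 6 pairs). In pairs 1 to 6 the differences were -23235, -3559, 3623, -8296, -8122 and 8812 TPM. Without static replicate 1, the highest library, and with its partner flow replicate 1 kept, the difference of the group means became 589 TPM. The direction of this unpaired difference thus rested on that library.

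The nuclear encoded sum varied much less. It ran from 30436 to 33395 TPM with flow, with a mean of 31908 ± 1174 TPM (SD, n = 6), and from 31560.2 to 34468 TPM without flow, with a mean of 32999 ± 1208 TPM (SD, n = 6). It was lower with flow in 5 of 6 pairs, and the mean pair difference was -1091 ± 1808 TPM (SD). Flow replicate 2, the exception, had the highest sum of the flow libraries. Summed by complex over the nuclear encoded genes, the ratio of the flow mean to the static mean was 0.957 for complex I, 0.983 for complex II, 0.988 for complex III, 0.954 for complex IV and 0.978 for complex V. The groups overlapped in each.

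**Figure D2:**
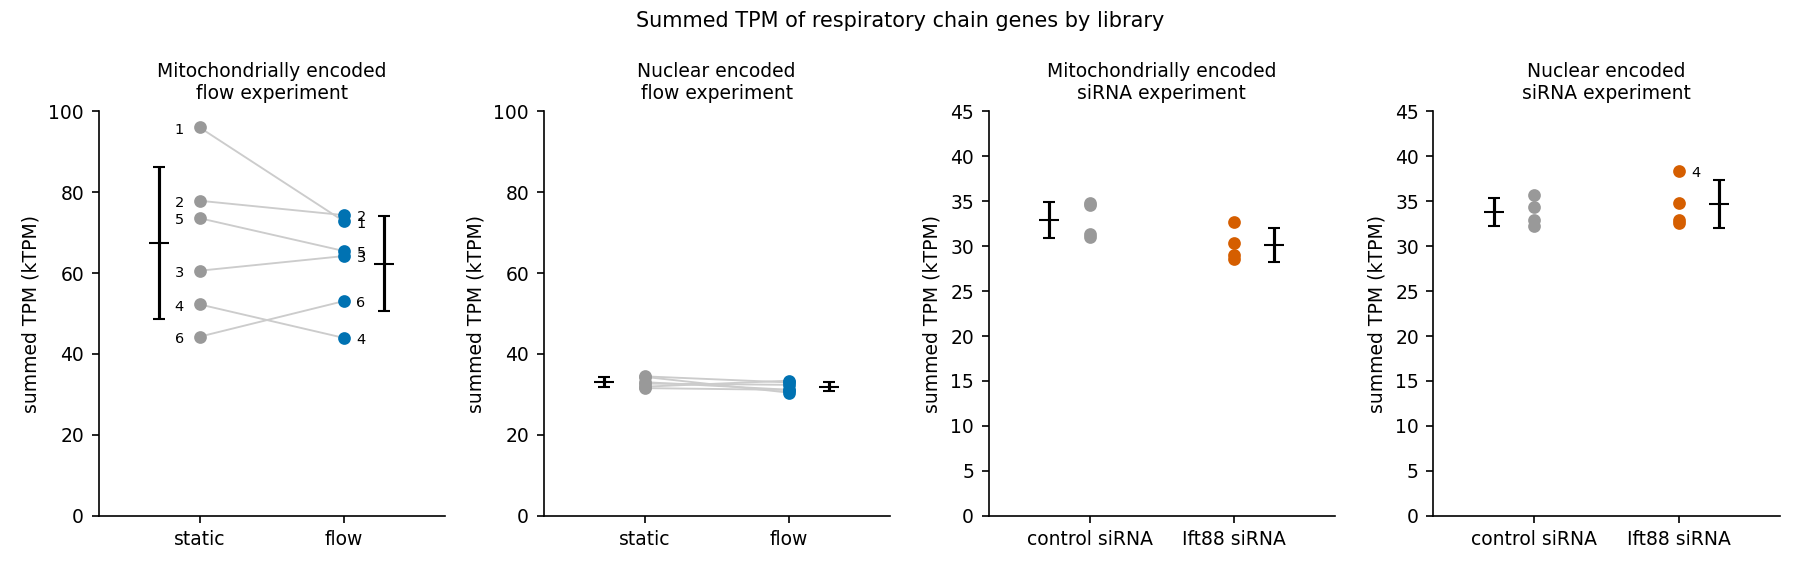
Summed TPM (axis in kTPM) of the mitochondrially and nuclear encoded genes, 1 point per library, with the mean and SD of each group beside the points; grey lines join same-numbered libraries of the flow experiment. The mitochondrial sum runs from 43976 to 96047 TPM for flow and static libraries and from 28530 to 34774 TPM for siRNA libraries, and the nuclear sum stays between 30436 and 38372 TPM.

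Gene by gene, none of the 91 members was called between flow and static conditions by limma at an adjusted p under 0.05 and a change over 1.5-fold, and none had an unadjusted p under 0.05. The background is 0.105% of the 11388 genes tested called higher and 0% called lower, with 2.05% higher and 1.79% lower at the unadjusted threshold. The log2 fold changes of the 13 mitochondrial genes had a median of -0.08, against -0.03 over all genes tested, and 12 of 13 lay below 0. The values ran from -0.17 for mt-Co2 to 0.05 for mt-Nd3. Their standard errors ran from 0.12 to 0.23, so that differences of this size were not detectable here. mt-Co2 was at 5278, 8441 and 9642 TPM with flow (lowest, median and highest) and at 5908, 9093 and 13343 TPM without. For mt-Co1, the catalytic subunit of complex IV, the same values were 4428, 6611 and 7821 TPM with flow and 4588, 7112 and 10263 TPM without. The groups overlapped for both, and for each of the other 11, whereas 0.492% of all genes tested were higher and 0.0527% lower without overlap.

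Of the 78 nuclear encoded members, 65 had log2 fold changes below 0 and 13 above, with a median of -0.05. All 13 subunits of complex IV lay below 0, as did 30 of 36 in complex I, 4 of 4 in complex II, 4 of 8 in complex III and 14 of 17 in complex V. Over all genes tested 6973 of 11388 lay below 0. So did 66 of 78 cytosolic ribosomal protein genes, with a median of -0.04, and 43 of 78 mitochondrial ribosomal protein genes, with a median of -0.01. Among subunits picked for their role, the log2 fold change was -0.03 for Ndufv1 and 0.02 for Ndufs1 of complex I, 0.02 for Uqcrfs1 and -0.04 for Uqcrc2 of complex III, -0.07 for Cox4i1 and -0.02 for Cox5a of complex IV, and 0.01 for Atp5b of ATP synthase. The highest values were 0.08 for Uqcrc1 and 0.05 for Atp5g1, followed by Ndufb6, Ndufs6 and Ndufa9 at 0.02 each. The lowest were Cox7a1 at -0.60, Ndufv3 at -0.30, Ndufa6 at -0.27, Cox7a2l at -0.17 and Ndufs5 at -0.14.

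Same-numbered flow and static libraries deviated together over all genes, so limma was also run with the pair number as a blocking term. It found 6 members with an unadjusted p under 0.05, all nuclear encoded and lower with flow, beside 7.17% of all genes lower. They are Ndufv3, Ndufs5, Ndufa6 and Ndufb5 of complex I, Cox7a1 of complex IV and Atp5mpl, a small subunit of ATP synthase. None passed after adjustment, the smallest adjusted p being 0.331 for Cox7a1.

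Several of the members with the lowest fold changes shared a pattern in which flow replicate 2 stood apart. Ndufv3, a subunit of the NADH-oxidising module of complex I, was at 141, 145, 138, 109, 105 and 167 TPM in static replicates 1 to 6. With flow it was at 85.2, 186, 107, 94.3, 91.04 and 104 TPM. Flow replicate 2 was thus the highest of the 12 libraries and the other 5 flow libraries lay below their static partners. Ndufa6, an accessory subunit of complex I, was at 567, 490.2, 463, 378, 468 and 507 TPM without flow and at 332, 620.1, 367, 359, 382 and 366 TPM with flow. Cox7a1 was at 47.9, 51.4, 49.96, 34.4, 22.1 and 47.4 TPM without flow and at 12.9, 70.2, 30.8, 21.4, 15.8 and 35.3 TPM with flow. In both, all pairs but the second were lower with flow. Cox7a2l was at 387, 421, 397, 336, 336 and 328 TPM without flow and at 311, 507, 342, 297, 313 and 237 TPM with flow. Ndufb11, an accessory subunit of complex I named here after its values were seen, was at 176, 174, 169, 163, 172 and 181 TPM without flow and at 131, 201, 150.1, 147, 152 and 164 TPM with flow. In each of the 5 genes, flow replicate 2 was the highest library of the experiment.

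**Figure D3:**
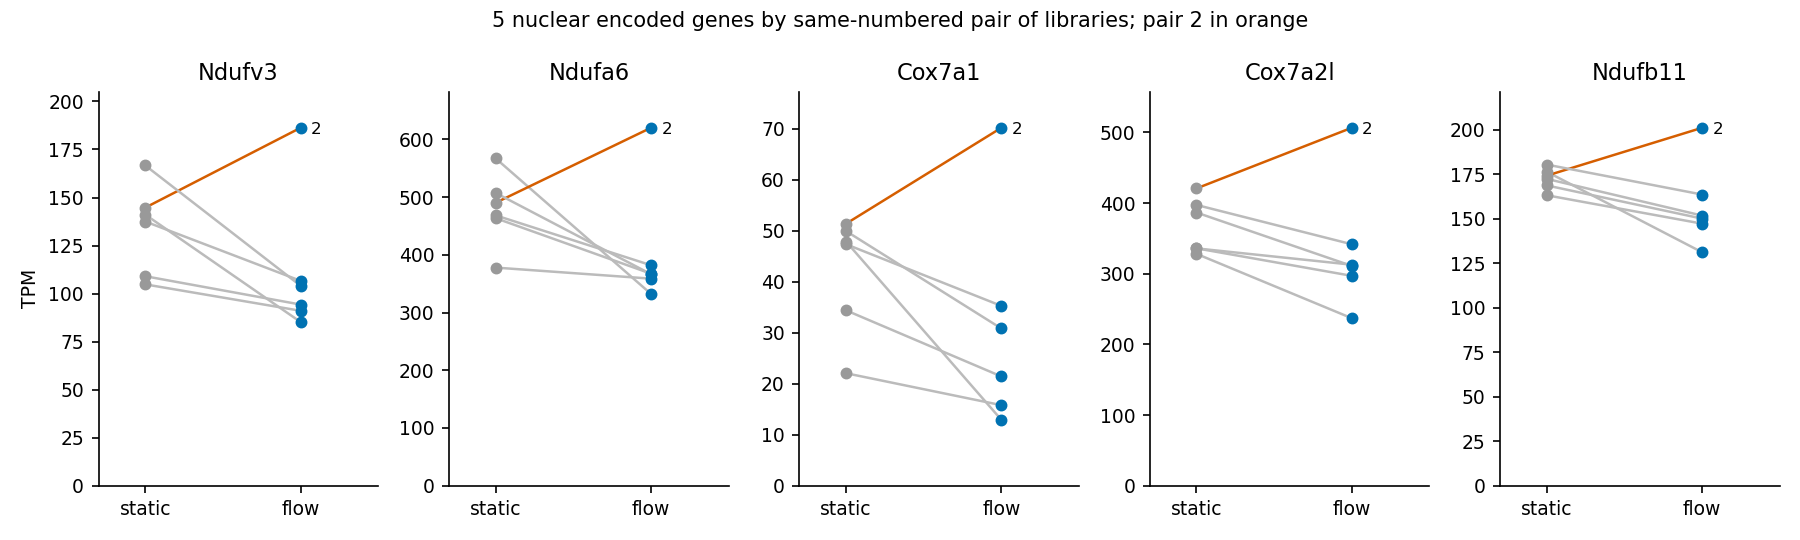
TPM of Ndufv3, Ndufa6, Cox7a1, Cox7a2l and Ndufb11 in static and flow libraries, with lines joining same-numbered libraries and pair 2 in orange; each axis starts at 0. In all 5 genes pair 2 is higher with flow, at 186, 620.1, 70.2, 507 and 201 TPM, and the other 5 pairs are lower. The genes are the members with an adjusted p under 0.05 in the blocked fit without pair 2. Their pattern partly follows from that choice.

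Without flow replicate 2, 7 nuclear encoded members had an unadjusted p under 0.05, all lower with flow, against 8.54% of all genes lower, and Ndufa6 passed after adjustment (adjusted p = 0.0483), as did 0.29% of all genes in this direction. Leaving out both libraries of pair 2 with the block kept, an alternative added after these values were seen, gave 18 such members, against 17.1% of all genes lower. At an adjusted p under 0.05 there were then 5, against 5.44% of all genes lower. They were Ndufv3 (log2 fold change -0.43, adjusted p = 0.00985), Ndufa6 (-0.39, adjusted p = 0.0146), Cox7a1 (-0.80, adjusted p = 0.0150), Cox7a2l (-0.26, adjusted p = 0.0177) and Ndufb11 (-0.21, adjusted p = 0.0323). Only Cox7a1 also passed the fold threshold, at 1.75-fold lower with flow, beside 0.51% of all genes called lower. Without pair 2 and without the block the adjusted p of these 5 ran from 0.124 to 0.383. The shares of members were near the background, and no mitochondrially encoded member had an unadjusted p under 0.05 in this fit. The cause of the difference between flow replicate 2 and the other flow libraries was not tested.

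The promoters of 3 of these genes are shown because the genes differed together between libraries. They are the 250 bases before and 50 after the RefSeq start (build GRCm38.p6, in the gene's direction). Ndufa6 is at chr15:82354242-82354541 on the minus strand, Ndufv3 at chr17:31519865-31520164 on the plus strand and Cox7a1 at chr7:30183921-30184220 on the plus strand. Capitals mark matches on either strand to the motifs searched.
Ndufa6: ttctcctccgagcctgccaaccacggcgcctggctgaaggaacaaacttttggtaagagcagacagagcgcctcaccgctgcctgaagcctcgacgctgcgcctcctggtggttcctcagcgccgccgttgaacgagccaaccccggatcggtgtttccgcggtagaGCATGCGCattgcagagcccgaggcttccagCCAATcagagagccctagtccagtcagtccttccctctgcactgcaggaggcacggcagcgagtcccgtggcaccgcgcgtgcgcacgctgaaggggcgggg
Ndufv3: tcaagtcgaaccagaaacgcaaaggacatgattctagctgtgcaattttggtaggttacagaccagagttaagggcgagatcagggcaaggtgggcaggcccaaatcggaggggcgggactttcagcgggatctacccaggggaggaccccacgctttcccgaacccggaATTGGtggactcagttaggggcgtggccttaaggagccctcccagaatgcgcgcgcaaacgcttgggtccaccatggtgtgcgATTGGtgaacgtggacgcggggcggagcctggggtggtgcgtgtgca
Cox7a1: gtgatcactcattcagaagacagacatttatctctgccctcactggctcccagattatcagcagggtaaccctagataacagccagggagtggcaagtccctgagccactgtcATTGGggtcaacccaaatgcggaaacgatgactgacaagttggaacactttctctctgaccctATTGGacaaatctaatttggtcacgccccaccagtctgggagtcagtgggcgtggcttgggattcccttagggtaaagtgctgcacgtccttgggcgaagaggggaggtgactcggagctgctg
The Ndufa6 window holds 1 match to the NRF1 motif GCATGCGC and 1 to the CCAAT box, those of Ndufv3 and Cox7a1 hold 2 CCAAT matches each, and the windows of Cox7a2l and Ndufb11 hold 0 and 4 CCAAT matches. Of the 79 nuclear encoded members, 66 were matched to the promoter table with 71 windows. The NRF1 motif was found in 14.1% of these windows and in 2.71% of all 32851 windows of the same length. For the other motifs searched on both strands, the shares in member windows and in all windows were 40.8% and 37.4% for CCAAT, 23.9% and 8.86% for the ETS motif CCGGAAG, 14.1% and 2.75% for the YY1 motif AAGATGGC and 11.3% and 4.72% for the estrogen-related receptor motif AAGGTCA. None of these motifs contains another. A match is a description of the sequence and does not show binding.

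Other genes of the same pathway were counted from lists. In the flow comparison no gene of these lists had an adjusted p under 0.05. At the unadjusted threshold 2 of 47 assembly factors were lower with flow, Tmem126b (log2 fold change -0.23), a complex I assembly factor, and Coa6 (-0.15), which serves complex IV. Over all genes tested 1.79% were lower and 2.05% higher at this threshold. Of 32 factors for mitochondrial DNA and RNA, Mterf4 alone passed it, at 15.5 ± 1.60 TPM with flow and 18.6 ± 0.992 TPM without (SD, n = 6 each). Of 78 mitochondrial ribosomal protein genes 2 passed it, Mrpl49 and Mrpl44, both lower with flow. None of 18 electron carriers and partners, 12 transcription factors of the respiratory genes, 18 tricarboxylic acid cycle genes or 78 cytosolic ribosomal protein genes did. Atpif1, the inhibitor of ATP synthase, was at 597 ± 49.03 TPM with flow and 624 ± 46.8 TPM without.

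Glycolysis, the cytosolic route to ATP, had all 16 listed entries below 0, with a median log2 fold change of -0.18 against -0.05 for the nuclear encoded members. The summed TPM of these entries was lower with flow in 5 of 6 pairs. Pair 2 was the exception, and flow replicate 2 had the highest sum of the experiment at 21411 TPM. None of the 16 had an unadjusted p under 0.05 without the block and 11 had with it, all lower with flow, beside 7.17% of all genes lower in the blocked fit, and none passed after adjustment. Gapdh was at 4512 ± 1598 TPM with flow and 5246 ± 1041 TPM without, and Gpi1 at 420.5 ± 208 and 519 ± 108 TPM (SD, n = 6 each). For both the spread within each group exceeded the difference between the means.

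The second comparison asks what silencing of Ift88 changes in cells under flow. Ift88 itself was at 1.30 ± 0.326 TPM (SD, n = 4) with its siRNA and at 4.14 ± 0.0541 TPM (SD, n = 4) with the control siRNA (log2 fold change -1.17, limma adjusted p = 0.00212). Among the 7 mitochondrially encoded genes of complex I, mt-Nd2 and mt-Nd1 were lower with Ift88 siRNA at an adjusted p under 0.05, and the other 5 had lower means without passing. None of the 92 members was called, against 0.152% of the 11209 genes tested called higher and 0.0714% called lower. At an adjusted p under 0.05 alone these were the 2 members that passed, against 0.178% of all genes lower and 0.455% higher. At the unadjusted threshold 7 of 13 mitochondrial genes were lower and none higher, against 4.91% of all genes lower and 9.02% higher.

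mt-Nd2, a core subunit of the membrane arm of complex I (chrM:3914-4951), was at 498, 469.9, 466 and 428 TPM in Ift88 siRNA replicates 1 to 4. In the control siRNA libraries it was at 623, 596, 684 and 606 TPM. All libraries with Ift88 siRNA lay below all controls, and the log2 fold change was -0.43 (standard error 0.06, limma adjusted p = 0.00959). The adjusted p was between 0.00348 and 0.0736 over 14 alternatives and passed in 13, the exception being the fit without a filter on low values. mt-Nd1, another core subunit of that arm (chrM:2751-3707), was at 2213, 2102, 2025 and 1951 TPM with Ift88 siRNA and at 2426, 2486, 2578 and 2604 TPM with the control siRNA. The groups did not overlap here either, and mt-Nd1 differed by -0.28 on the log2 scale, with a standard error of 0.06 and a limma adjusted p of 0.0489. This p passed in only 2 of 14 alternatives, with adjusted p values from 0.0247 to 0.166.

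mt-Nd4l was at 598, 530, 488 and 486 TPM with Ift88 siRNA and at 696, 652, 627 and 659.8 TPM with the control siRNA (log2 fold change -0.33, adjusted p = 0.0572). Its adjusted p was between 0.0234 and 0.195 over 14 alternatives and passed in 4, with median-of-ratios scaling, with library weights, with the replicate block and without Ift88 siRNA replicate 1. mt-Nd4 was at 719, 675, 639 and 611 TPM against 796, 739, 851 and 759 TPM (-0.25, adjusted p = 0.115). Neither gene's groups overlapped. mt-Nd5 was at 261, 252, 275 and 235 TPM against 329, 278, 319 and 266 TPM (-0.22, adjusted p = 0.243). mt-Nd3 was at 103, 93.9, 78.3 and 79.8 TPM against 85.1, 114, 134 and 101 TPM (-0.28, adjusted p = 0.342). mt-Nd6 was at 362, 397, 473 and 375 TPM against 498, 449, 435 and 410 TPM (-0.16, adjusted p = 0.42). In these 3 genes the groups overlapped. Summed over the 7 genes, complex I transcripts were at 4753, 4519, 4445 and 4166 TPM with Ift88 siRNA and at 5451, 5315, 5628 and 5406 TPM with the control, a ratio of means of 0.82. The highest library with Ift88 siRNA lay below the lowest control.

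Outside complex I the log2 fold changes lay between -0.19 and 0.05. mt-Cytb of complex III was at 5225, 4839, 4583 and 4886 TPM with Ift88 siRNA and at 5283, 5692, 5672 and 5641 TPM with the control siRNA (log2 fold change -0.19, adjusted p = 0.197). mt-Co1 was at 2329.8, 2456, 2427 and 2528 TPM against 2551, 2562, 2972 and 2583 TPM (-0.13, adjusted p = 0.392). In both the groups did not overlap, and with mt-Nd1, mt-Nd2, mt-Nd4 and mt-Nd4l this made 6 of 13 genes without overlap and lower, against 2.79% of all genes tested. mt-Co3 overlapped, at 3038, 2587, 1967 and 2648 TPM against 2442, 3096, 2792 and 3179 TPM (-0.18, adjusted p = 0.531). mt-Co2 was at 1534, 1387, 1300 and 1431 TPM against 1217, 1553, 1142 and 1587 TPM (0.05, adjusted p = 0.868) and had the only log2 fold change above 0 among the 13, which lay below 0 in some of its 14 alternatives. For the ATP synthase genes the log2 fold change was -0.07 for mt-Atp6 (95% interval -0.25 to 0.10) and -0.04 for mt-Atp8 (95% interval -0.23 to 0.16). Control replicates 1 and 3 were lower than 2 and 4 in mt-Co2, mt-Atp6 and mt-Atp8. Whether the complex I genes differed from the other mitochondrial genes was not tested.

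**Figure D4:**
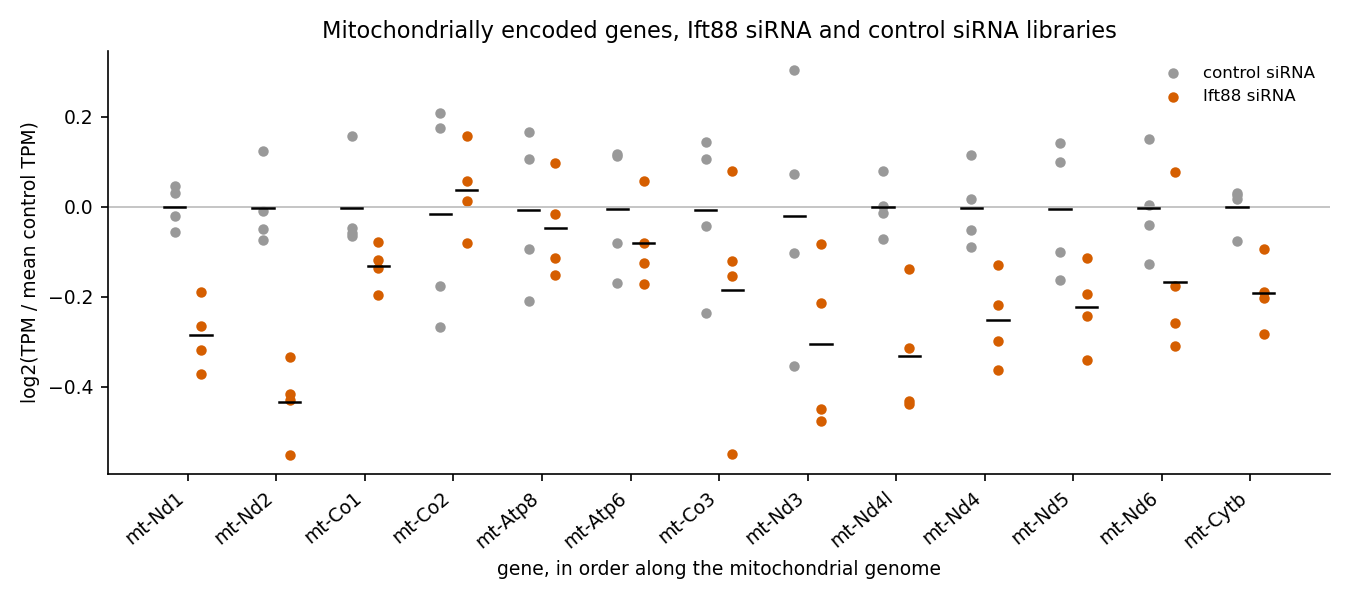
Level of each mitochondrially encoded gene as log2 of TPM over the mean of the control siRNA libraries, in order along the mitochondrial genome, with 1 point per library and the mean of each group as a black line. The Ift88 siRNA points of mt-Nd1, mt-Nd2, mt-Nd4l, mt-Nd4, mt-Co1 and mt-Cytb all lie below the control points, and those of mt-Co2 and mt-Atp8 lie among them.

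The mitochondrial sum did not separate the groups as the complex I sum did. It was 32731, 30327, 28530.1 and 29067 TPM with Ift88 siRNA and 31044, 34774, 31329 and 34582 TPM with the control siRNA, with means of 30164 ± 1869.7 and 32932 ± 2021 TPM (SD, n = 4 each). Ift88 siRNA replicate 1 lay within the controls. The 13 log2 fold changes had a median of -0.19, against 0.02 over all genes tested. Complex I genes made up 14.3 to 15.6% of the mitochondrial TPM with Ift88 siRNA and 15.3 to 17.96% with the control siRNA.

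The nuclear encoded sum was 32636, 32909.7, 34793 and 38372 TPM with Ift88 siRNA and 32212, 34419, 32954 and 35666 TPM with the control siRNA. The means were 34678 ± 2643 and 33813 ± 1539 TPM (SD, n = 4 each). Ift88 siRNA replicate 4 was the highest library, with 73 of 79 nuclear encoded members above their mean. Without it the difference of the group means went from 865 to -366 TPM, so its direction rested on that library. Of the 79 members 56 had log2 fold changes above 0 and 23 below, with a median of 0.04, and over all genes tested 6164 of 11209 lay above 0. At the unadjusted threshold 6 members were higher and 1 lower, which are shares of the 79 below the background given above, and none passed after adjustment. Groups did not overlap for 4 higher members, Ndufv1, Ndufs3, Uqcrc1 and Atp5d, against 5.79% of all genes, and for 1 lower member, Ndufb5.

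Ndufs4 was at 50.6, 59.8, 62.7 and 67.3 TPM with Ift88 siRNA and at 44.3, 52.7, 42.6 and 60.8 TPM with the control siRNA (log2 fold change 0.26, adjusted p = 0.33). The groups overlapped. Cox7a1 was at 8.16, 11.02, 14.7 and 11.8 TPM against 7.52, 9.18, 8.85 and 7.41 TPM (0.41, adjusted p = 0.256), and Cox5a, a subunit of complex IV, at 663, 644, 672 and 717 TPM against 597, 635, 541 and 665 TPM (0.15, adjusted p = 0.353). These overlapped too. Sdhc, a membrane anchor of complex II, and Atp5e, the epsilon subunit of ATP synthase, each had a log2 fold change of 0.20. All 4 complex II genes lay above 0, and they summed to 878 ± 36.1 TPM after Ift88 siRNA and 812 ± 23.3 TPM after control siRNA (SD, n = 4 each), with overlap. Ndufb5, an accessory subunit of the membrane arm, was the lower member, at 201, 246, 262 and 259 TPM against 264, 265, 302 and 278 TPM (-0.20, adjusted p = 0.311).

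Of the subunits picked for their role, Ndufs1 had a log2 fold change of 0.14 (95% interval -0.03 to 0.31), Ndufv1 0.06 (-0.04 to 0.17), Uqcrfs1 0.06 (-0.08 to 0.21), Uqcrc2 0.07 (-0.08 to 0.21), Cox4i1 0.08 (-0.08 to 0.24) and Atp5b 0.05 (-0.08 to 0.18). These intervals leave out a change of 1.5-fold in either direction. Of the subunit c genes, Atp5g2 lay at -0.06 and Atp5g3 at 0.05. The other low members were Uqcrq, Ndufa5, Cox7c and Atp5h, at -0.12, -0.12, -0.11 and -0.11.

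**Figure D5:**
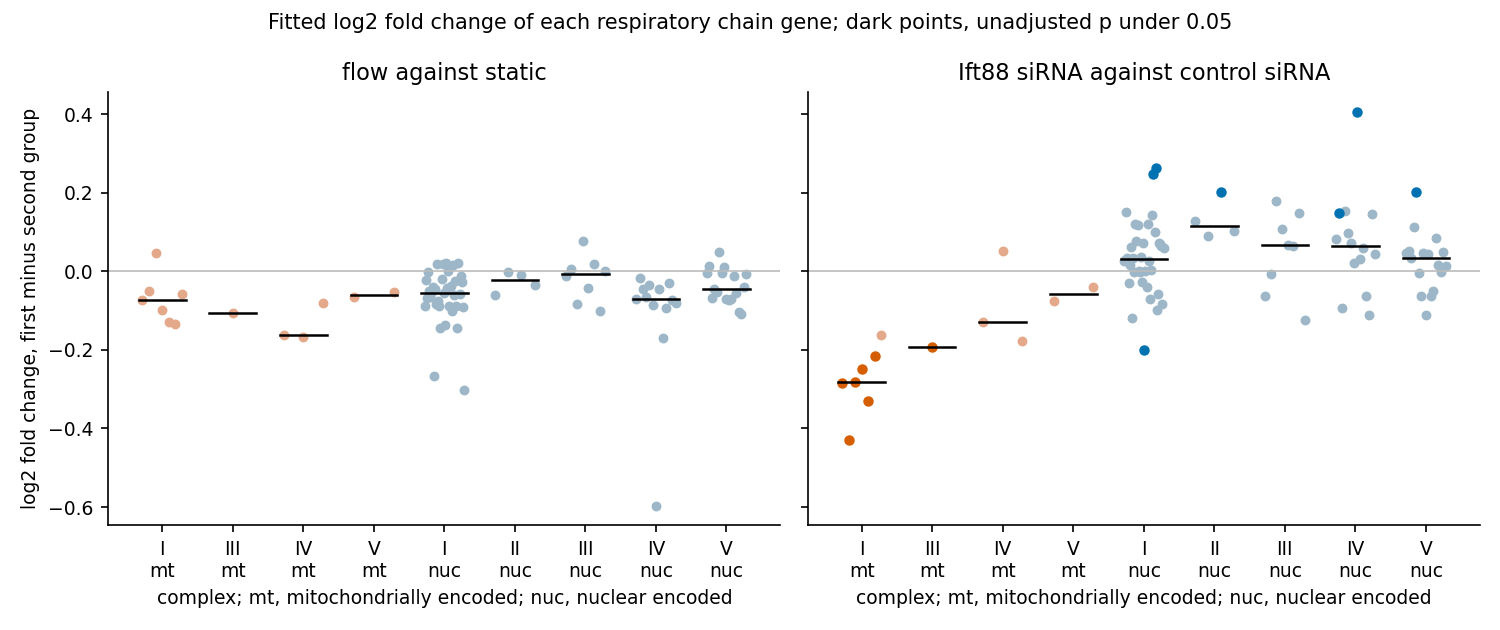
Fitted log2 fold change of each member, grouped by complex and by genome of origin, for flow against static (left) and Ift88 siRNA against control siRNA (right), with the median of each group as a black line and members with an unadjusted p under 0.05 in dark colour. In the right panel the mitochondrial complex I genes lie between -0.43 and -0.16 and the nuclear encoded complex I genes between -0.20 and 0.26; the left panel holds no dark point.

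Among the other pathway genes, Coq9, which takes part in ubiquinone synthesis, was higher with Ift88 siRNA at 33.8 ± 1.40 against 24.9 ± 2.68 TPM (SD, n = 4 each; log2 fold change 0.43, limma adjusted p = 0.0485), below the fold threshold. It was the only gene of the lists with an adjusted p under 0.05, beside 0.455% of all genes tested higher and 0.178% lower. In all 5 of 18 electron carriers and partners were higher at the unadjusted threshold and none lower, beside 9.02% of all genes higher. Besides Coq9 they were Coq4, Pdss2 and the electron transfer flavoproteins Etfa and Etfb. Of 32 factors for mitochondrial DNA and RNA 5 were lower and 2 higher, beside 4.91% of all genes lower and 9.02% higher. Polg, the mitochondrial DNA polymerase, was at 22.4 ± 4.09 against 31.7 ± 3.20 TPM (log2 fold change -0.49, limma adjusted p = 0.0905). Polrmt, the mitochondrial RNA polymerase, was at 22.3 ± 2.36 against 26.6 ± 1.44 TPM (-0.25, limma adjusted p = 0.252). Mterf1a, Mterf1b and Tfb2m, a transcription initiation factor, were the other 3 lower ones, and Fastkd3 and Prorp the higher ones. Whether these values bear on the mitochondrial transcripts was not tested.

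Of 46 assembly factors 3 were lower at the unadjusted threshold, Pet100, Timmdc1 and Sco2, and 1 was higher, Ndufaf7. Pet100, which serves complex IV, was at 38.2 ± 4.86 against 49.2 ± 2.70 TPM (log2 fold change -0.36, limma adjusted p = 0.0978). Of 78 mitochondrial ribosomal protein genes 5 were higher and none lower, a share below the 9.02% of all genes higher. Of 79 cytosolic ribosomal protein genes 10 were lower and none higher, beside 4.91% of all genes lower, among them Rps12 at -0.44 and Rps25 at -0.33. The difference between these lists was not tested. In the tricarboxylic acid cycle none of 18 genes passed the threshold, in glycolysis 1 of 16 in each direction, Pfkl higher and Hk2 lower, and of 12 transcription factors Pparg alone, higher. For Atpif1 the means were 809.8 ± 77.5 TPM after Ift88 siRNA and 817 ± 52.7 TPM after control siRNA. The groups also differed in how many genes had a value above 0, from 15713 to 16682 with Ift88 siRNA and from 15292 to 15382 with the control siRNA, whose part in these values was not tested.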

How the data were processed

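The deposited files were 2 tables of gene TPM, 1 per experiment. Per the labels, the authors processed reads with fastp 0.20.0, FastQC 0.11.8, MultiQC 1.8 and kallisto 0.46.2; the study's methods name poly(A)-selected, directional libraries and an Ensembl mouse transcriptome. Each TPM column sums to 1000000, so the deposited values keep no read totals, and an abundant transcript class lowers the others. Genes averaging 1 TPM or more were tested by limma 3.58.1 (R 4.3.3, empirical Bayes with trend) on log2(TPM + 1), which understates the change of low genes, with Benjamini-Hochberg adjustment over all genes tested in a table. Called means an adjusted p under 0.05 and over 1.5-fold. DESeq2, used in the study, was not applied because TPM are not counts. Only the 12 or 8 libraries of a comparison entered its fit. Sums and lists were given no test. Groups came from the sample labels.

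Same-numbered libraries were checked for pairing by the correlation of their deviations from the group means. It was 0.29 to 0.66 over the 6 flow pairs, each over 0.1, with 5 of 6 numbers best with their own and replicate 3 better with another, so the blocked fit was reported beside the first. The members and lists were chosen with earlier results of these data known. Named were all mitochondrial members, the 5 nuclear encoded members per direction with the largest change, the 5 with the smallest p, the highest and lowest of each complex, isoform sets and a short list of further subunits; some genes are not reported here. The fits were tested on simulated data with known changes. Coordinates and sequences are of GRCm38, which is not the annotation the authors used. Alternatives were other filters (none, or a mean of 5 TPM), median-of-ratios scaling, a pseudocount of 0.1, rescaling without mitochondrial genes, library weights, the replicate block, no fold threshold, medians for means, omission of each library, replicates 1 to 3 or 4 to 6 alone and flow replicate 6 as static. Omission of both libraries of pair 2 was added after the data were seen.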

Additional observations from a re-analysis of the deposited data

Results flagged for a closer look

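In 13 of 204 groups of libraries tested, 1 library of a named gene stood far from the others of its group; chance alone marks about 1 in 20 groups. In the flow group, replicate 2 was high for Ndufa6, at 620.1 TPM against 332 to 382 TPM in the others, and for Ndufv3, at 186 TPM against 85.2 to 107 TPM. Flow replicate 6, whose labels conflict, was high for Ndufa9 (136 TPM against 108 to 118 TPM) and Ndufs6 (211 TPM against 174 to 184 TPM) and low for Uqcrfs1 (113 TPM against 128 to 137 TPM). Static replicate 1 was high for Cox7b, at 219.7 TPM against 146 to 172 TPM, and low for Sdha, at 89.4 TPM against 103 to 109 TPM. In the Ift88 siRNA group, replicate 4 was high for Cox7a2l, at 323 TPM against 296 to 299 TPM, and for Cox7b, at 125 TPM against 99.8 to 102 TPM. In the control siRNA group, replicate 3 was low for Atp5g3 (447 TPM against 517 to 527 TPM) and high for mt-Co1 (2972 TPM against 2551 to 2583 TPM), replicate 4 was high for Sdhc (101 TPM against 76.8 to 80.8 TPM) and replicate 1 was low for mt-Cytb (5283 TPM against 5641 to 5692 TPM).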

How the results depend on the processing

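In the flow comparison no member was called in the alternatives run, except 1, Cox7a1, without pair 2 and with the replicate block. The number of members with an unadjusted p under 0.05 went from 0 to 6 with the replicate block, 12 with library weights, all lower, beside 15.4% of all genes lower, 1 with TPM rescaled without mitochondrial genes, 1 with replicates 4 to 6 only, 7 without pair 2 and 18 without pair 2 with the block, and lay between 0 and 7 when single libraries were left out, 7 being without flow replicate 2; the cause was not tested. In the siRNA comparison 2 members passed without a fold threshold, mt-Nd1 and mt-Nd2, and 2 with the replicate block as well, mt-Nd2 and mt-Nd4l. The siRNA libraries share only a number (correlations 0.00276 to 0.26, with 2 of 4 numbers best with their own), and under the replicate block 21 members had an unadjusted p under 0.05, 11 higher and 10 lower, beside 11% and 7.17% of all genes, against 14 without. The count was 6 of the 79 nuclear encoded members with TPM rescaled without mitochondrial genes, which leaves those genes out, and 8 to 19 when single libraries were left out.

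Without single libraries the median log2 fold change lay between -0.21 and 0.03 (mitochondrial, flow), -0.07 and -0.03 (nuclear, flow), -0.23 and -0.18 (mitochondrial, siRNA) and 0.0046 and 0.07 (nuclear, siRNA). The difference of summed TPM lay between -9764 and 589 (mitochondrial, flow), -1388 and -796 (nuclear, flow), -3624 and -2154 (mitochondrial, siRNA) and -366 and 1546 (nuclear, siRNA). Of 1163 values of 49 named members in the flow comparison 5 newly passed the threshold, and of 721 in the siRNA comparison 13 no longer passed and 4 newly passed. None of these changed direction between the first fit and the fit in question. Among values that passed in neither, the sign changed in 99 of the flow and 23 of the siRNA comparison. Cox7a2l, which newly passed in 1 flow alternative, lay between -0.30 and 0.01 over its 24 alternatives. TPM hold no read totals, so depth limits cannot be given.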
